A study of Mus musculus with 8 samples.

Results

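Among 15108 genes well above background in untreated RAW264.7 cells, a macrophage-like tumour line of the mouse, 67 genes or transcripts were lower both after interleukin-13 (IL13) alone and after all-trans retinoic acid (ATRA) alone, at 12 h and again at 24 h. They were chosen by value. Each had a probe that the scanner software called well above background on both untreated arrays, and each was at least 0.8 log2 units below untreated cells in all 4 single-agent comparisons (IL13 and ATRA, 12 h and 24 h). Genes named Oas, Ifit or Mx were left out, which removed 4 genes (Oas2, Oas3, Oasl2 and Mx2). Before that step the rule took 71 genes, 0.47% of the 15108. Of the 67, 44 carry a gene symbol and 23 a clone or accession name.

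The groups were cells given IL13 together with ATRA, cells given IL13, cells given ATRA, and untreated control cells, each hybridized to a single array per time, at 12 h and 24 h. In the labels the first group is M2 polarization suppressed, the second is M2 macrophages, and the ATRA and control cells are unpolarized. All were grown in DMEM with heat-inactivated fetal bovine serum, and the labels give no dose. They do not say whether the cultures were separate, and the 12 h and 24 h arrays stand in for replicates, so the errors cover only how far those arrays differed. The times lay on different slides and cannot be told apart from them, but treatments were always compared on the same slide. In such bulk RNA, fewer cells with a transcript and less of it per cell cannot be told apart.

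IL13 signals through the IL-4 receptor alpha chain and STAT6 and drives the alternative, or M2, activation of macrophages. ATRA binds the nuclear retinoic acid receptors, which act on genes as partners of retinoid X receptors. Interferon-stimulated genes are switched on by interferon signalling, many of them through the interferon-stimulated response element in their promoters, and macrophages keep many of them at a standing level.

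Most of the 67 are dim. Levels are given here as the log2 of the processed signal minus the log2 of that array's 75th percentile, so that 0 is the 75th percentile of the array. By their mean untreated level, 46 of the 67 were among the dimmest 3777 of the 15108 genes, 12 among the next 3777, 8 among those after them and 1 among the brightest 3777. The signal was not well above background on either array of cells given both agents for 40 of the 67, on either IL13 array for 24 and on either ATRA array for 32. Of the 67, 18 were well above background on all 8 arrays, and those 18 have a measured value in every group. A log2 difference for a gene that sits in the background of a treated group rests on background readings there. It is neither a measurement nor a bound. With normexp background correction 14 genes met the rule, 13 of them among the 67. Normexp was run with an offset of 50 added to every signal, which by itself shrinks the log2 differences of dim genes. It therefore cannot tell a weak difference from a shrunken one.

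**Figure D1:**
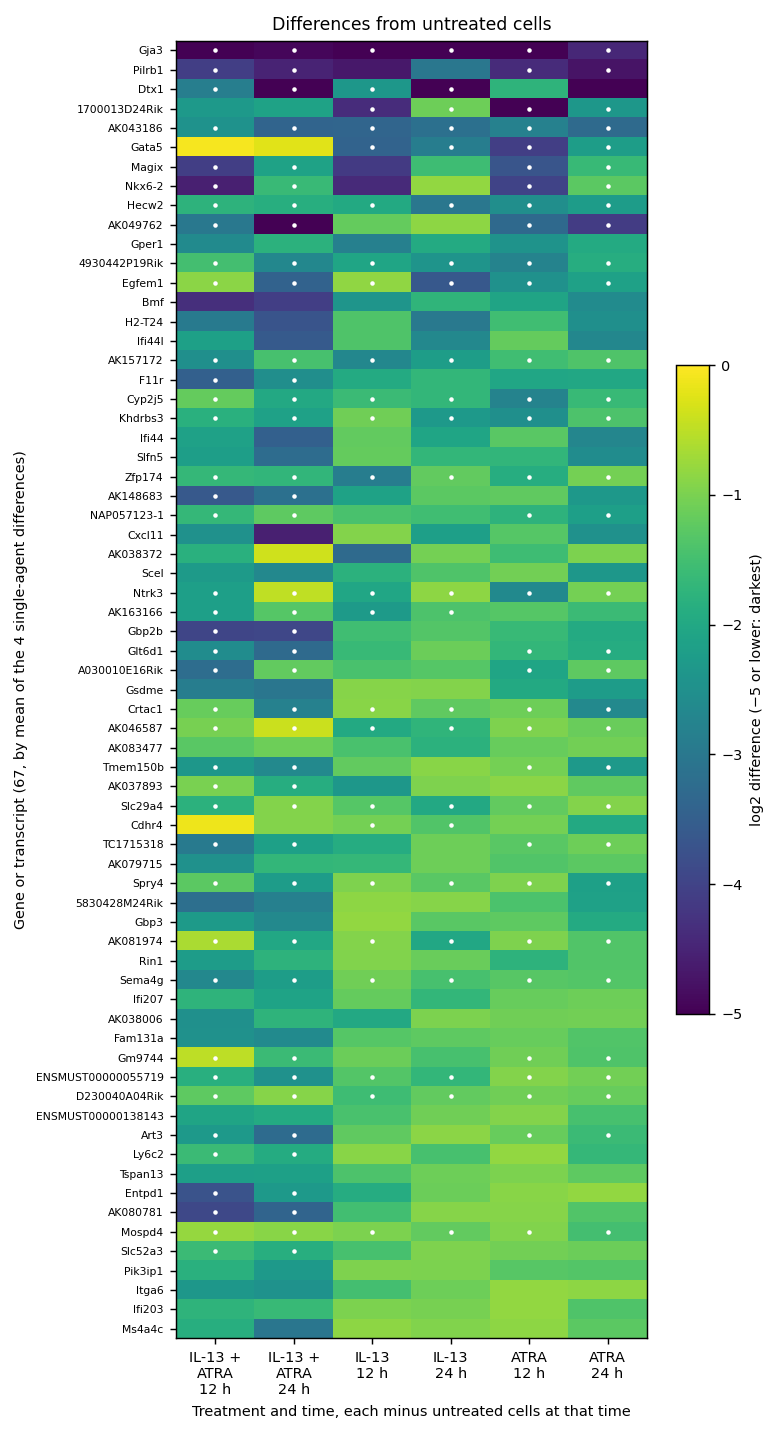
Log2 difference from untreated cells at the same time (colour, from 0 to −5 or lower) for the 67 genes or transcripts (rows) in cells given both agents, IL13 or ATRA at 12 h and 24 h (columns). White dots mark a treatment whose 2 arrays were both not well above background, where the difference rests on background readings and its size was not measured. All squares are below 0. The rule set this for the IL13 and ATRA columns, while the columns of both agents were not part of it but share the untreated arrays. In 40 rows both squares of both agents carry a dot.

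Gja3 encodes connexin 46, a subunit of the gap junction channels best known from the lens. On the probe used, its signal was 2.1 and 2.1 at 12 h and 24 h with both agents, 2.3 and 1.8 with IL13, and 2.0 and 2.9 with ATRA, against 287 and 62.5 in untreated cells. The probe was well above background on 2 of 8 arrays, those of the untreated cells, and every treated array was far below them. Gja3 was at least 13.8-fold lower with both agents than in untreated cells. With IL13 it was at least 15.1-fold lower and with ATRA at least 15.2-fold lower. These folds, like every "at least" fold here, are set by the lowest signal called well above background on each treated array. Some probes read above that signal and were still not called, so the folds are nominal and not strict minimum drops. The 2 untreated arrays themselves differed, with levels of −0.95 at 12 h and −3.01 at 24 h.

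A single probe carries the Gja3 result. The probe is shown because the other 2 probes of the gene gave another picture. Per the annotation in the files it lies on the minus strand of mm9 at chr14:57654779-57654838.
Gja3 probe: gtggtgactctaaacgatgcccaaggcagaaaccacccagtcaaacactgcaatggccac
The other probes lie 1240 and 19680 bases away, and one of them targets a different cDNA. Both were well above background on 0 of 8 arrays, with signals of at most 2.68, untreated cells included. Whether the used probe reads Gja3 or another transcript in these cells was not tested.

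Pilrb1, an activating paired immunoglobulin-like receptor of myeloid cells, had signals of 4.1 and 2.2 with both agents, 2.6 and 8.5 with IL13 and 4.1 and 1.8 with ATRA, against 85.1 and 48.8 in untreated cells. It was at least 6.64-fold lower with both agents and at least 7.33-fold lower with ATRA. Dtx1, an E3 ubiquitin ligase of the Notch pathway, differed greatly between the untreated arrays, at 33.2 at 12 h and 313 at 24 h, and was at least 10.5-fold lower with both agents. These genes lead the set by size, and in every treated group at least 1 array of each was not well above background. Among the other low-signal genes near the top of the set were the transcription factors Gata5 and Nkx6-2, the ubiquitin ligase Hecw2, the PDZ protein Magix, the RNA-binding protein Khdrbs3 and the cytochrome P450 Cyp2j5.

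Gper1, a G-protein-coupled receptor that binds estrogen, had the lowest mean single-agent difference among the 18 measured on all arrays. Its level was −3.50 and −3.31 at 12 h and 24 h with both agents, −3.70 and −3.46 with IL13 and −3.33 and −3.47 with ATRA, against −0.89 and −1.52 in untreated cells. The 6 treated arrays overlapped each other and lay below both untreated arrays. The difference of both agents from IL13 was 0.17 ± 0.24 log2 units and from ATRA −0.01 ± 0.24 (limma estimate ± standard error), so no further drop with the pair was detected.

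Bmf, a BH3-only protein of the BCL2 family that promotes apoptosis, was lowest with both agents. Its level was −4.80 and −4.50 with both agents, −2.85 and −2.15 with IL13 and −2.54 and −3.02 with ATRA, against −0.46 and −0.42 in untreated cells. The IL13 and ATRA arrays overlapped each other, lay below the untreated arrays and lay above the arrays of both agents. Of its 2 other probes, one was well above background on the 2 untreated arrays alone, so its differences rest on background readings. At 12 h and 24 h they were −2.17 and −1.57 with IL13 and −2.14 and −1.19 with ATRA. With both agents they were −2.18 and −2.51. The other probe, above background on all 8 arrays, gave −1.08 and −0.77 with IL13 and −0.77 and −0.40 with ATRA. With both agents it gave −1.32 and −1.36, a smaller further drop than on the used probe.

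There were 30 further probes for 24 of the 67, and 18 of these were not well above background on both untreated arrays. The remaining 12 probes, of 9 genes, were all below 0 in the 4 single-agent comparisons, and 7 of them were at most −0.8 in all 4. Those 7 belonged to Bmf, H2-T24, Ifi44l, Ifi44, Slfn5, Ifi207 and Ifi203. Gja3 had no such probe, and Pilrb1 and Dtx1 had no further probe. As with Gja3, a further probe of Magix, Cyp2j5, Spry4, Entpd1, Slc52a3 and Ms4a4c, among others, was well above background on 0 of 8 arrays, untreated cells included.

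**Figure D2:**
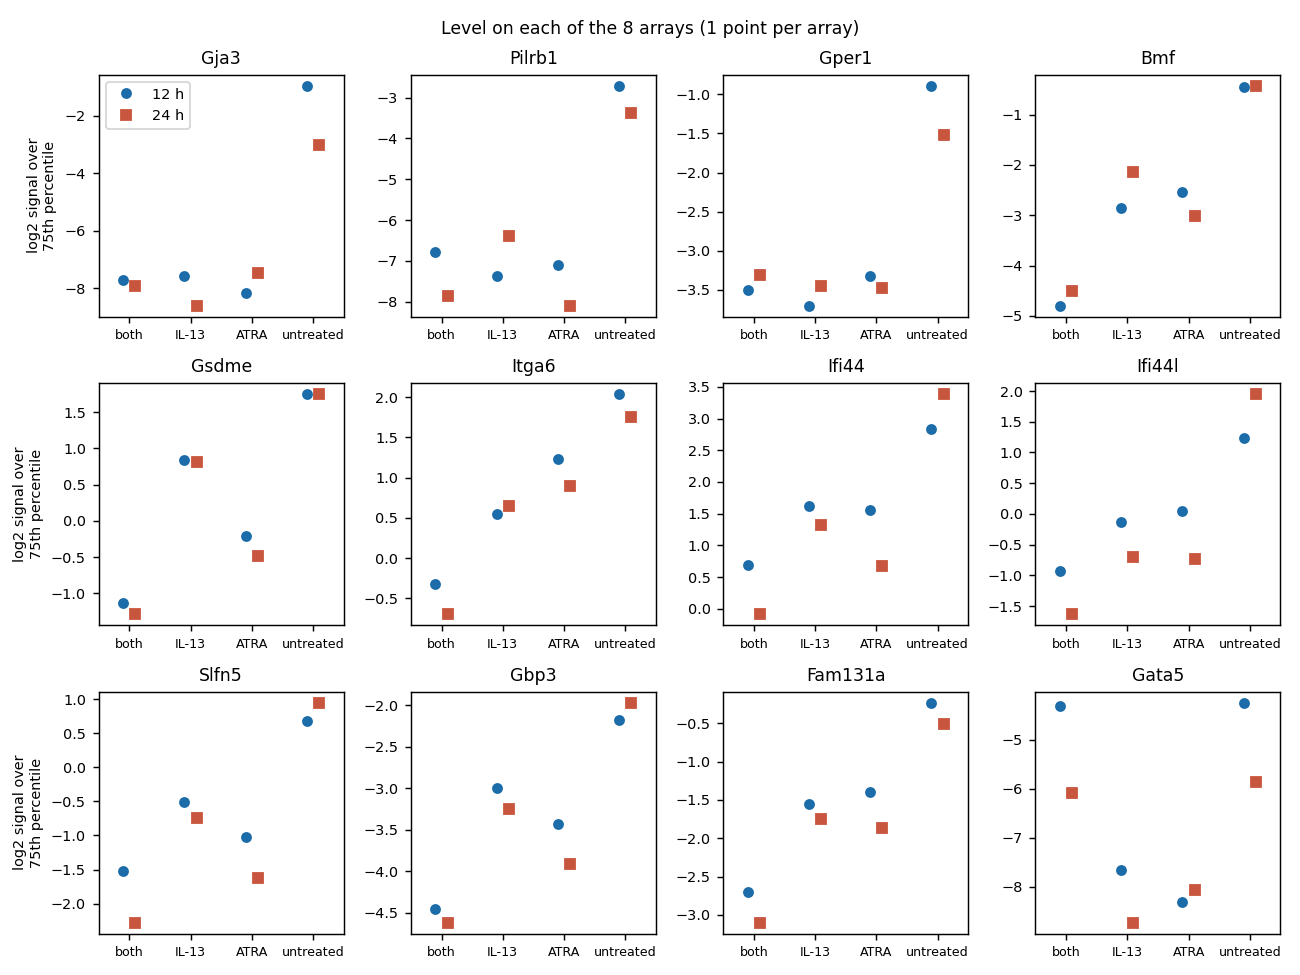
Level on each of the 8 arrays (vertical axis, log2 signal minus the log2 75th percentile of the array; each panel has its own range) for 12 genes, in cells given both agents, IL13 or ATRA and in untreated cells (horizontal axis), with circles for 12 h and squares for 24 h. Bmf, Gsdme, Itga6, Gbp3 and Fam131a were lowest with both agents, Gper1 was alike in the 3 treated groups, and Gata5 was well above background on the untreated arrays and on 1 of the 2 arrays of both agents.

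Several members belong to the interferon response, and most of these were measured on all arrays. Ifi44 and its neighbour Ifi44l encode interferon-induced cytoplasmic proteins. Ifi44 had levels of 0.69 and −0.09 with both agents, 1.62 and 1.32 with IL13 and 1.56 and 0.67 with ATRA, against 2.83 and 3.39 in untreated cells. Ifi44l had levels of −0.93 and −1.63 with both agents, −0.14 and −0.71 with IL13 and 0.05 and −0.74 with ATRA, against 1.23 and 1.95 in untreated cells. In both genes the untreated arrays were the highest and, at each time, both agents gave the lowest level.

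Slfn5, a Schlafen family protein induced by type I interferon, had levels of −1.52 and −2.28 with both agents, −0.51 and −0.74 with IL13 and −1.03 and −1.62 with ATRA, against 0.67 and 0.95 in untreated cells. Gbp3, a guanylate-binding GTPase of the interferon response, had levels of −4.45 and −4.62 with both agents, −3.00 and −3.26 with IL13 and −3.43 and −3.91 with ATRA, against −2.18 and −1.97 in untreated cells. Each was lowest with both agents at both times. Ifi203 and Ifi207, nucleic acid-binding proteins of the p200 family, were lower as well. With both agents Ifi203 differed from untreated cells by −1.74 and −1.63 at 12 h and 24 h, and Ifi207 by −1.75 and −2.11. A transcript annotated in the files as a second form of Ifi203 differed by −2.08 and −1.94.

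H2-T24, a non-classical MHC class I gene, differed from untreated cells by −2.94 and −3.70 log2 units at 12 h and 24 h with both agents, −1.38 and −2.97 with IL13 and −1.53 and −2.50 with ATRA. Cxcl11, an interferon-induced chemokine that binds CXCR3, differed by −2.46 and −4.57 with both agents, −0.92 and −2.19 with IL13 and −1.31 and −2.46 with ATRA. Ms4a4c, a membrane protein of the MS4A family, differed by −1.87 and −3.04 with both agents, −0.86 and −0.95 with IL13 and −0.84 and −1.26 with ATRA. In each of these genes the distance from untreated cells was larger at 24 h than at 12 h in all 3 treated groups. Cxcl11 and Ms4a4c were well above background on 1 of the 2 arrays of both agents.

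A list of 96 interferon-stimulated genes other than Oas, Ifit and Mx was followed across the array. All 88 measured members of it were well above background in untreated cells, and 6 (6.82%) met the rule, against 67 of 15108 genes (0.444%). The 6 were Ifi44l, Ifi44, Slfn5, Gbp3, Ifi203 and Ms4a4c. Of the 88, 63 were below 0 in all 4 single-agent comparisons and 3 were above 0 in all 4, against 2199 and 2250 of all 15108 genes. The list's median difference at 12 h and 24 h was −0.99 and −1.38 with both agents, −0.35 and −0.79 with IL13 and −0.66 and −1.08 with ATRA. Over all genes these medians lay between −0.03 and 0.05.

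Some genes of the list did not follow. Cd274, which encodes the ligand PD-L1, differed from untreated cells by 1.69 and 1.87 log2 units with both agents, 2.15 and 3.08 with IL13 and −0.48 and −0.46 with ATRA. Ifi27 differed by 0.34 and −0.15 with both agents, 0.59 and 0.40 with IL13 and 0.15 and 0.17 with ATRA. The list of interferon ligands, receptors and signalling factors had 0 of 24 members within the rule, and its median was −0.27 and −0.01 with both agents.

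**Figure D3:**
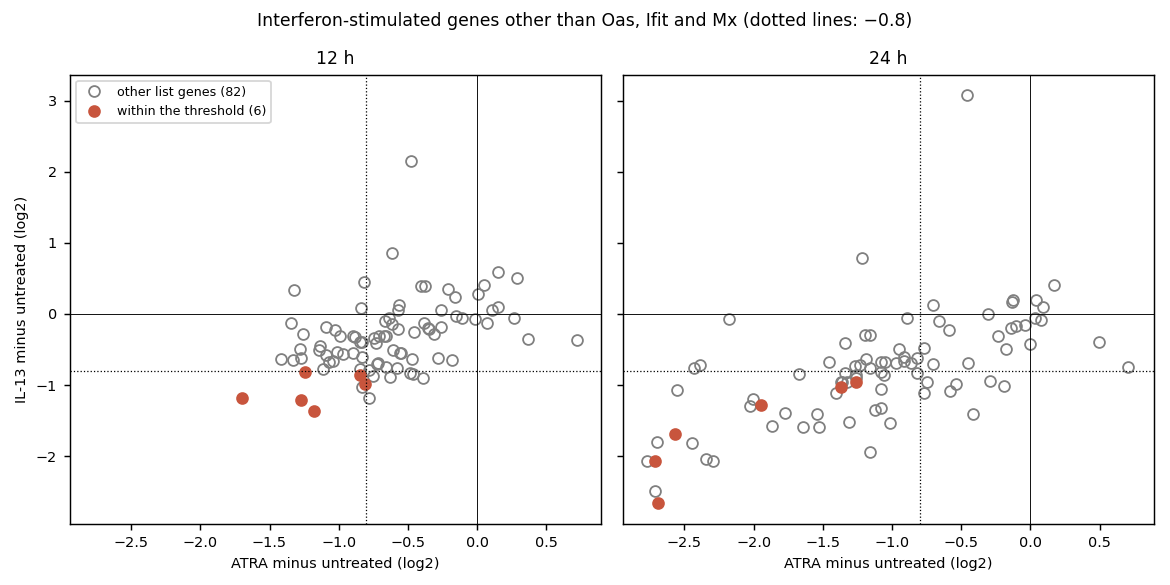
IL13 minus untreated (vertical axis) against ATRA minus untreated (horizontal axis), both in log2 units, for 88 interferon-stimulated genes at 12 h (left) and 24 h (right). Filled points are the 6 genes within the −0.8 threshold (dotted lines) at both times; the axes share the untreated arrays. Of the 88, 63 lie below 0 on both axes at both times, and the point at 3.08 on the vertical axis is Cd274.

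Promoter windows were available in RefSeq (GRCm38.p6) for 36 of the 67, each 250 bases before to 50 after the gene's start. The interferon-stimulated response element core, read as GAAA, any 2 bases and GAAA again and searched on both strands, stood in 6 windows (16.7%), against 3.76% of 9995 genes above background in untreated cells with a window and 3.99% of all 27025 genes with one. The 6 were Pilrb1, Slfn5, Gbp2b, Gbp3, Ifi207 and Ifi203. A match is a run of letters and not a bound site. Of the 6, the windows of genes that lie near each other in the genome are shown. Gbp3 and Gbp2b are adjacent genes, and Ifi207 and Ifi203 have 3 protein-coding genes between them. Ifi44 and Ifi44l are adjacent too, but neither is among the 6, although Ifi44l had a window. Capitals mark the core or its reverse complement.
Ifi207, chr1:173741760-173742059, minus strand: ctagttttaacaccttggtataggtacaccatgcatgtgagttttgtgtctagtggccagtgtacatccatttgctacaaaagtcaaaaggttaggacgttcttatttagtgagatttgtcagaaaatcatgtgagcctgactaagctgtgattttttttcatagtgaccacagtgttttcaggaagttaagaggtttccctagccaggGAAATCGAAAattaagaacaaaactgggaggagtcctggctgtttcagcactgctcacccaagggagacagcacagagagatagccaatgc
Ifi203, chr1:173942443-173942742, minus strand: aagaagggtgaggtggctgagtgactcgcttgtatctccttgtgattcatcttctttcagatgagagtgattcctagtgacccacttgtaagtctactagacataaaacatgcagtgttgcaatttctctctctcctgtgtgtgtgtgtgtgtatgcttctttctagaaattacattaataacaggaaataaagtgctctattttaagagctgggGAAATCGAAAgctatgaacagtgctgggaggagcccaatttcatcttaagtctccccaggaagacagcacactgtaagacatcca
Gbp3, chr3:142559794-142560093, plus strand: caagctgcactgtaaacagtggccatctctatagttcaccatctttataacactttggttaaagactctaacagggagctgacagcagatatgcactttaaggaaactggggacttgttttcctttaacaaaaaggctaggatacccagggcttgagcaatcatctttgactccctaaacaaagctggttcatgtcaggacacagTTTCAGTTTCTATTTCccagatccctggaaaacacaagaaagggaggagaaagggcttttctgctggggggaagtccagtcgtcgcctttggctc
Gbp2b, chr3:142594597-142594896, plus strand: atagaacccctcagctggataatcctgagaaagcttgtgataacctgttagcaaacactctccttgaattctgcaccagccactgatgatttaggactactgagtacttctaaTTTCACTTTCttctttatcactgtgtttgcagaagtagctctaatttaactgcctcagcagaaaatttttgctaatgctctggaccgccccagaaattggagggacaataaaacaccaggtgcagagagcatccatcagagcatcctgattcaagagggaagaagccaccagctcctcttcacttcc
The p200 family genes Ifi207 and Ifi203 hold the same 10 letters, 41 and 35 bases before their starts. Gbp3 holds 2 overlapping matches. Of the other 6 motifs searched, the STAT6 pattern (TTC, any 4 bases, GAA) stood in 4 windows (11.1%), against 6.67% of genes above background, and the retinoic acid receptor core AGGTCA in 5 (13.9%), against 15.2%.

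Together, IL13 and ATRA left all 67 below untreated cells at both times. At most −0.8 log2 units at both times were 59 of the 67 (88.1%), against 4.48% of all genes. Those differences share the untreated arrays with the rule, so they are a description with no test. The median difference over the 67 at 12 h and 24 h was −2.19 and −2.16 with both agents, −1.44 and −1.34 with IL13 and −1.30 and −1.60 with ATRA. These medians include background readings: 40 of the 67 were not well above background on either array of both agents, 24 with IL13 and 32 with ATRA. The median for both agents over the mean of the 2 times was −2.16. Over the 18 members well above background on all 8 arrays it was −2.43. With normexp background correction, whose offset of 50 shrinks differences of dim genes, the median over the 67 was −0.31.

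Among the 18 members measured on all arrays, 16 had a lower level with both agents than with each single agent at both times, against 11.7% of the 13673 genes measured on all arrays. Gper1 and AK083477 were the exceptions. Over all 67 the count was 38 (56.7%), against 12.5% of all genes, but 22 of these 38 were not well above background on some array, so that part of the order is among background readings. The same holds for the other places. The level with both agents was above each single agent for 4 (10.9% of all genes), between them for 5 (27.3% of all genes), and differed in place between the times for 20. Of the 4, Hecw2 and Mospd4 were well above background on 0 treated arrays, and Gata5 and Cdhr4 on 1 of the 2 arrays of both agents.

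**Figure D4:**
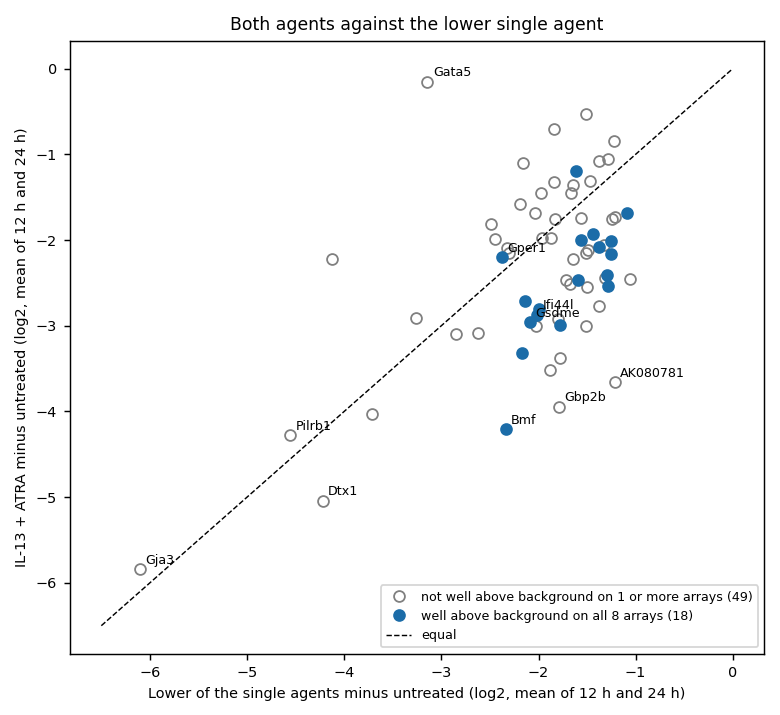
Both agents minus untreated (vertical axis) against the lower of the single-agent differences (horizontal axis), log2 units, each the mean of 12 h and 24 h, for the 67 genes or transcripts. Filled points were well above background on all 8 arrays, open points were not, and the dashed line marks equal values. Most filled points lie below the line; open points, Gata5 among them, rest in part on background readings.

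Against IL13 alone, 9 of the 67 (13.4%) were called lower with both agents by limma across all 15439 genes fitted, at a Benjamini-Hochberg adjusted p under 0.05, where 1.52% of all genes were. Gsdme, a gasdermin that caspase-3 cleaves into a pore-forming fragment, differed by −2.04 ± 0.12 log2 units (SE; limma adjusted p = 0.0066), −1.97 at 12 h and −2.11 at 24 h. Bmf differed by −2.15 ± 0.28 (limma adjusted p = 0.031). Itga6, the laminin-binding integrin alpha 6, differed by −1.11 ± 0.15 (limma adjusted p = 0.034). The others were Gbp3 at −1.41 ± 0.18, Fam131a at −1.26 ± 0.12, the non-coding RNA 5830428M24Rik at −2.12 ± 0.26 and Pik3ip1, an inhibitor of phosphoinositide 3-kinase, at −1.09 ± 0.15. The guanylate-binding protein Gbp2b and the clone AK080781 were called too, but on 0 of 2 arrays of both agents were they well above background. Their limma differences, −2.51 and −2.44 log2 units (limma adjusted p = 0.0066 and 0.026), rest on background readings. Against the detection limit instead, Gbp2b was 1.33-fold and AK080781 1.72-fold lower than the mean of the IL13 arrays. Each was well above background on 1 of 2 IL13 arrays, so these folds are not firm bounds. With normexp background correction Gbp3, Gbp2b and AK080781 lost the call, and the Pik3ip1 difference turned to 0.023.

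Against ATRA alone, 4 of the 67 (5.97%) were called lower with both agents, where 0.0907% of all genes were. Itga6 differed by −1.57 ± 0.15 (limma adjusted p = 0.034) and Fam131a by −1.28 ± 0.12 (limma adjusted p = 0.033). For Gbp2b and AK080781 the limma differences, −2.16 and −2.53 (limma adjusted p = 0.019 and 0.046), rest on background readings with both agents. Against the detection limit instead, AK080781 was at least 1.83-fold lower than with ATRA. Gbp2b was 1.04-fold lower, which is not a firm bound, since it was well above background on 1 of 2 ATRA arrays. All 4 were also called against IL13. With normexp, Itga6 alone of the 4 kept the call against ATRA: Gbp2b was at −0.09, AK080781 at −0.22 and Fam131a at −0.71 (limma adjusted p = 0.916, 0.703 and 0.0756). AK080781 also lost it with quantile normalization (limma adjusted p = 0.081) and with the authors' deposited table (limma adjusted p = 0.0796). Members were chosen for low values on the single-agent arrays, which works against a lower call with both agents, and higher calls were not tested for that reason. On the arrays of the 2 compared groups alone, 0 of the 67 were called in either comparison. Leaving out 1 array at a time gave 0 to 10 calls against IL13, with 0 without the 24 h array of both agents, and 0 to 3 against ATRA. Against IL13, Gsdme and Gbp2b kept their call in 7 of these 8 refits, Bmf, Fam131a and AK080781 in 3, Gbp3 and 5830428M24Rik in 2, Itga6 in 1 and Pik3ip1 in 0. Against ATRA, Gbp2b kept it in 3, Itga6 and Fam131a in 2 and AK080781 in 0.

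Itga6 had levels of −0.32 and −0.70 with both agents, 0.55 and 0.65 with IL13 and 1.23 and 0.90 with ATRA, against 2.04 and 1.75 in untreated cells. The 4 groups did not overlap. Its 2 other probes differed from untreated cells by −1.97 and −2.02 and by −2.03 and −2.09 with both agents. Gsdme had levels of −1.14 and −1.29 with both agents, 0.84 and 0.82 with IL13 and −0.21 and −0.48 with ATRA, against 1.75 and 1.75 in untreated cells, and its groups did not overlap either. Its 2 other probes above background in untreated cells differed less, by −0.40 and −0.92 on one and −0.47 and −0.46 on the other with both agents. With IL13 the same probes differed by −0.10 and −0.74 on one and −0.70 and −0.25 on the other. The latter, above background on all 8 arrays, was not lower with both agents than with IL13 at 12 h. The size of the drop called against IL13 was thus seen on the used probe alone. Fam131a had levels of −2.71 and −3.10 with both agents, −1.55 and −1.75 with IL13 and −1.40 and −1.86 with ATRA, against −0.23 and −0.50 in untreated cells. Its IL13 and ATRA arrays overlapped each other, and both agents were below them.

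Gata5, a zinc-finger transcription factor of heart and gut development, differed from this pattern. Its signal was 22.3 and 7.5 with both agents, 2.1 and 1.7 with IL13 and 1.8 and 1.9 with ATRA, against 29.3 and 8.7 in untreated cells. It was well above background on 1 of the 2 arrays of both agents, that at 12 h, where it differed from untreated cells by −0.08 log2 units. At 24 h with both agents, and on every array of either single agent, it was not well above background. Over the mean of the 2 times it was at least 1.80-fold lower with IL13 and at least 1.82-fold lower with ATRA than in untreated cells. At 24 h its untreated level, −5.85, lay below the detection limit of the ATRA array, −5.80, so the size of that drop was not measured.

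Several members act in signalling, adhesion and at the cell surface. Rin1, a Ras effector and Rab5 exchange factor, differed from untreated cells by −2.24 and −1.76 with both agents, −0.95 and −1.14 with IL13 and −1.77 and −1.37 with ATRA. Tspan13, a tetraspanin, differed by −2.18 and −2.15 with both agents, −1.39 and −1.11 with IL13 and −0.98 and −1.25 with ATRA. Both were lowest with both agents at each time. F11r, the junctional adhesion molecule A, was at least 5.64-fold lower with both agents than in untreated cells, and Entpd1, the ectonucleotidase CD39, at least 3.14-fold lower. Spry4, a feedback inhibitor of receptor tyrosine kinase signalling, had signals of 3.3 and 1.9 with both agents, 3.8 and 5.1 with IL13 and 5.0 and 1.9 with ATRA, against 9.7 and 8.6 in untreated cells. It was well above background on 0 treated arrays. Its untreated levels, −5.84 and −5.87, lay near the detection limits of those arrays, −5.98 and −6.05. The size of its drop was therefore not measured. Ly6c2, a surface protein of inflammatory monocytes, was at least 2.21-fold lower with both agents, and the riboflavin transporter Slc52a3 at least 2.79-fold lower.

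The 23 clone and accession names had mean differences from −4.03 to −0.71 with both agents (median −2.09), −3.26 to −0.88 with IL13 (median −1.51) and −4.13 to −0.998 with ATRA (median −1.27). Of these, 4 were well above background on all arrays. Among them the clone AK079715 differed from untreated cells by −2.48 and −1.70 with both agents, −1.66 and −1.10 with IL13 and −1.36 and −1.26 with ATRA. The non-coding RNA 5830428M24Rik differed by −3.17 and −2.82 with both agents, −0.85 and −0.91 with IL13 and −1.41 and −2.14 with ATRA.

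Of the other gene lists followed, gap junction genes had 1 of 6 members within the rule, integrins and adhesion molecules 2 of 23, MAP kinase feedback regulators 1 of 15 (Spry4), MHC class I genes 1 of 19, paired and Fc receptors 1 of 30, cytokines and chemokines 1 of 33, apoptosis genes 1 of 34 and G-protein-coupled receptors 1 of 38. Over all genes the share was 0.444%, and a single gene in a list of this size says nothing about the list. The other lists, among them macrophage identity (21 genes), cell cycle (51) and Toll-like receptor signalling (39), had 0. Of 9 macrophage markers 8 were well above background on all arrays, and of 26 markers of other cell types 16 were on none and 5 on all (Acta2, Cd3e, Cd4, Col1a2 and Kdr). The 16 include Hbb-b1, for which no probe was found, so it was not measured. Acta2 was bright, at 17975 and 15175 in untreated cells, and the rest of the 5 had signals of at most 63.1.

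Between 24 h and 12 h, a comparison over all 4 treatments, limma called 0 of the 67 and 0 of all 15439 genes. At an unadjusted p under 0.05 it picked 16 of the 67, against 12.1% of all genes. The lowest adjusted p among the 67 was 0.315.

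Just inside the threshold, by the smallest of the 4 single-agent drops, were Itga6 (−0.81), Entpd1 (−0.81) and Ly6c2 (−0.81), and just outside were NAP057053-1 (−0.80), D930046H04Rik (−0.79) and AK043897 (−0.78).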

How the data were processed

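Total RNA behind 8 arrays was labelled with Cy3 and hybridized to one-colour Agilent arrays of design 014868. Per the file headers, the authors read them with Feature Extraction 10.7.1.1, and the deposited intensity values used here are its processed signals, background-subtracted and not normalized between arrays. A log2 table that the authors also deposited served only as an alternative; how it was made is not given in the sources used here. The 75th percentile signal ran from 431 to 713, 54.1% to 61.4% of probes were well above background, and 0 probes were saturated. The number of arrays limits the precision.

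Non-uniform and outlying spots were dropped, spots of a probe averaged, and the log2 75th percentile of each array subtracted. A probe was kept if both arrays of any treatment showed it well above background (24016 probes), and the probe with the highest mean represented each gene (15439 genes). Symbols came from RefSeq accessions, symbols or synonyms, or else from the files. limma 3.58.1 in R 4.3.3 fitted 4 treatments and time on 8 arrays, with 3 residual degrees of freedom and Benjamini-Hochberg adjustment over all genes, and was tested on simulated data. Where a group was above background on 0 of its 2 arrays, "at least" folds set the brighter group's mean against the detection limit. That limit was the lowest signal called well above background on the array, or the gene's own reading where that was higher. Probes above the limit were not always called, so these folds are nominal. The contrasts that the rule used, and both agents against untreated cells, were not tested. Genes to name were Gja3, the 20 lowest members, those nearest the threshold, those differing most between both agents and the single agents, those called, and the leading members of 20 gene lists. The members and lists were chosen with earlier results of these data known.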

Additional observations from a re-analysis of the deposited data

Results flagged for a closer look

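For 3 members the effect of adding the second agent had opposite signs at the 2 times, each by at least 0.8 log2 units; with 1 array per treatment and time the difference was not tested. All 3 rest on background readings. For 1700013D24Rik, both agents minus IL13 was 2.05 at 12 h and −1.02 at 24 h, a change of −3.07, with 1 of 2 arrays of both agents and 0 of 2 IL13 arrays well above background. For Egfem1, both agents minus ATRA was 1.60 at 12 h and −1.29 at 24 h, a change of −2.89, with 0 arrays well above background in either group. For AK037893, both agents minus IL13 was 1.35 at 12 h and −0.91 at 24 h, a change of −2.26, with 0 of 2 arrays of both agents and 1 of 2 IL13 arrays well above background.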

How the results depend on the processing

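The number of genes that met the rule moved most. From 67, it went to 14 with normexp background correction, 18 with probes above background on all 8 arrays, 36 at a threshold of −1, 292 at 12 h alone and 214 at 24 h alone, and leaving out each array in turn gave 98 to 292, since fewer comparisons then had to pass. The count of members at least 0.8 below untreated cells with both agents, 59, was 20 with normexp and 18 with the filter on all arrays, where 18 members remained, and 62 to 63 without 1 array. The median difference of both agents from untreated cells, −2.16, was −0.31 with normexp. All normexp values include the added offset of 50, which shrinks log2 differences of dim genes. Members called lower with both agents than with IL13, 9, numbered 0 on the arrays of the 2 groups alone and 0 to 10 without 1 array. Members called lower than with ATRA, 4, numbered 1 with normexp, 7 with trend and robust settings, 0 on the arrays of the 2 groups alone and 0 to 3 without 1 array. In the fits without 1 array, the lone array of that group is assumed to vary like the others. Without the replicate block, which is the time term, the counts were 10 and 3. The difference of Pik3ip1 between both agents and IL13 turned to 0.023 with normexp (adjusted p = 0.949 by limma). The cause of the other changes was not tested. Quantile normalization and the authors' deposited table each gave 48 genes, 46 of them among the 67. The time comparison gave 0 calls under every alternative run. Signal near background limits 49 of the 67.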
